A study of Mus musculus with 21 samples.

Results

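The Cd3 gene cluster of mouse chromosome 9 holds Cd3g, Cd3d and Cd3e side by side. It was examined here as every peak overlapping the mm9 window chr9:44740000-44850000, a span of 110 kb, in 4 deposited peak lists. The genes themselves take up the stretch from about 44777000 to about 44818000, an approximate position that came with the choice of the window. The window held 29 of the 215239 peaks of the 4 lists, of which 26 were DNase I hypersensitive sites (DHS, short stretches where DNase I cuts accessible DNA) and 3 were TCF1 peaks. Within the window the peaks were taken by position, whatever their height. The locus itself was picked with earlier results of these data known.

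DNase-seq was run on 3 kinds of bone marrow progenitor from C57BL/6 mice, all sorted as negative for lineage markers and positive for Kit and 2B4. All-lymphoid progenitors (ALP) were further sorted as a4b7-, Flt3 high and IL-7Ra+ and carried the genotype label Tcf7EGFP/+. Early innate lymphoid progenitors (EILP) were sorted as a4b7+, Tcf7+ and Thy1- and carried the label Tcf7EGFPnull/+, although their source label reads WT. ILC precursors (ILCP) were sorted as a4b7+, Tcf7+, Thy1+ and IL-7Ra+ with the label Tcf7EGFP/+. The labels give no age, no sex and no number of mice per library. If the genotype labels hold, EILP differ from the other stages in a Tcf7 allele as well as in stage, and the influence of the allele cannot be told apart from that of the stage. Each stage had 3 libraries of 300 cells. TCF1 was measured in EILP alone by CUT&RUN, in which an antibody guides a nuclease to the factor's binding sites, with 500 cells per library. Tcf7 encodes TCF1. If the label Tcf7EGFPnull/+ also holds for these EILP, the TCF1 peaks come from cells with that allele, and its influence on them was not tested. The 6 TCF1 samples come from 4 library numbers and the 4 IgG samples from 3, since some are technical repeats of the same library. Labels conflict for 2 more CUT&RUN samples, technical repeats of 1 library number, with TCF1 in the title and an IgG track in the description. They were put in no group, and that library number is part of the control file of the TCF1 peaks.

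Each list was called on 1 pooled tag file. No value below therefore has a replicate error, and no comparison between stages could be tested against the spread between libraries. After filtering, ALP had 12420429 tags, EILP 11236009, ILCP 12681410 and TCF1 2418839, the last against a control of 2919489. The height of a peak is the number of extended tags over its summit. Its error is given as an exact 95% Poisson interval, which covers counting error only and takes no account of the summit being the highest point of the peak. Overlap of such intervals between stages is no test, and heights whose intervals overlap can still differ beyond counting error. The fold enrichment is the authors' ratio of height to local background after 1 was added to each. No RNA was measured, so the files say nothing of whether the Cd3 genes were transcribed, and the sorted cell types could not be checked against marker genes without an annotation of this build.

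CD3 gamma, CD3 delta and CD3 epsilon are the invariant chains that pair as gamma-epsilon and delta-epsilon dimers and carry the signal of the T cell receptor into the cell through immunoreceptor tyrosine-based activation motifs. Their genes are typical of T cells, whereas innate lymphoid cells (ILCs) carry no rearranged antigen receptor. TCF1, the product of Tcf7, is an HMG-box factor needed early in both the T cell and the ILC pathway, and an enhancer of Cd3e is among its first described targets. In the RefSeq gene table for GRCm38, read for gene order only, Cd3g, Cd3d and Cd3e follow each other from low to high coordinates. Ube4a, which encodes a ubiquitin ligase, is the protein-coding neighbour on the low side and Mpzl2, which encodes an adhesion molecule, the one on the high side. Cd3d lies on the plus strand, and Ube4a, Cd3g and Cd3e lie on the minus strand. The start of Ube4a is therefore at its end facing Cd3g. Cd3g and Cd3d thus run away from each other from neighbouring starts, and Cd3e starts at the high end of the 3 genes.

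The DNA of the mm9 peaks was not read here, so the promoters of the 3 genes are shown to place the motifs known for TCF1 and other lymphoid factors at the gene starts. They are the 250 bases before each start in RefSeq's table for GRCm38.p6, 5′ to 3′ along the gene, and their coordinates are on that build and cannot be set beside the mm9 positions of the peaks. Capitals mark matches, on either strand, to 7 short motifs. These were CTTTGAT and its variant CTTTGAA for TCF and LEF factors, TGTGGT for RUNX factors, CACCTG and the related CAGCTG for E proteins, CAGGAA for ETS factors and TGATAA for GATA factors. None of the matches overlap. The Cd3g promoter lies at chr9:44980432-44980681 on the minus strand, that of Cd3d at chr9:44981536-44981785 on the plus strand and that of Cd3e at chr9:45009612-45009861 on the minus strand.
Cd3g: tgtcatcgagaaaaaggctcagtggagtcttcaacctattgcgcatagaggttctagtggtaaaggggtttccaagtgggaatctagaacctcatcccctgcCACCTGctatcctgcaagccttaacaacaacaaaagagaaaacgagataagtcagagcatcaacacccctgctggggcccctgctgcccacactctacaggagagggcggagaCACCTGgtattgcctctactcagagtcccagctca
Cd3d: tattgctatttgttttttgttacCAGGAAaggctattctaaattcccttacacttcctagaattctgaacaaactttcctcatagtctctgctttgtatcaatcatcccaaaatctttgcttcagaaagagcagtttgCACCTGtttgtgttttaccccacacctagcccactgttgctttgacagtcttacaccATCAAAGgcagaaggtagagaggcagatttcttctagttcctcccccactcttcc
Cd3e: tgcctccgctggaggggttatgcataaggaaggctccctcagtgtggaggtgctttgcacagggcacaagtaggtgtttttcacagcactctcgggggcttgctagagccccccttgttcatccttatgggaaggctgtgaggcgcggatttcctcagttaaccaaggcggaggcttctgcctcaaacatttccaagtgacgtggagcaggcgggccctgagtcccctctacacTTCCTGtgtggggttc

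Among the 3 promoters, Cd3d alone held a TCF and LEF match. It read CTTTGAT on the strand opposite to the gene, 55 to 49 bases before the start. This heptamer occurs in 3.21% of the 32851 promoter windows of the table. The second TCF form, CTTTGAA, was in none of the 3 promoters and in 4.46% of all. The E-box CACCTG stood in the Cd3g promoter at 148 to 143 and at 35 to 30 bases before the start and in the Cd3d promoter at 112 to 107, against 17.2% of all promoters. The ETS motif CAGGAA stood in the Cd3d promoter at 227 to 222 bases before the start and, on the opposite strand, in the Cd3e promoter at 16 to 11, against 25.7% of all. There was no match to the RUNX string TGTGGT (14.0% of all promoters), the second E-box CAGCTG (13.0%) or the GATA string TGATAA (7.94%) in these 3 windows. Only these exact letters were searched, so other forms that the same factors may bind were not marked. The Cd3g promoter, for example, holds AGATAA, which differs from TGATAA in its first letter and was not searched. A match is a string of letters and no measured site. The G and C content was 51.6% for Cd3g, 41.2% for Cd3d and 57.2% for Cd3e, against a median of 52.4% over all promoters.

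The DHS of the window were mostly the same in all 3 stages. ALP had 9 DHS peaks in the window, EILP 8 and ILCP 9, and peaks of different stages that shared at least 1 bp made up 11 regions. Of these 11 regions, 7 were open in all 3 stages (63.6%, exact binomial interval 30.8 to 89.1), where 39.0% of the 102384 regions of the genome were. The interval includes the genome share. The covered length was likewise close, with 2034 bp in ALP, 2104 bp in EILP and 2093 bp in ILCP, or 1.85%, 1.91% and 1.90% of the window.

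**Figure D1:**
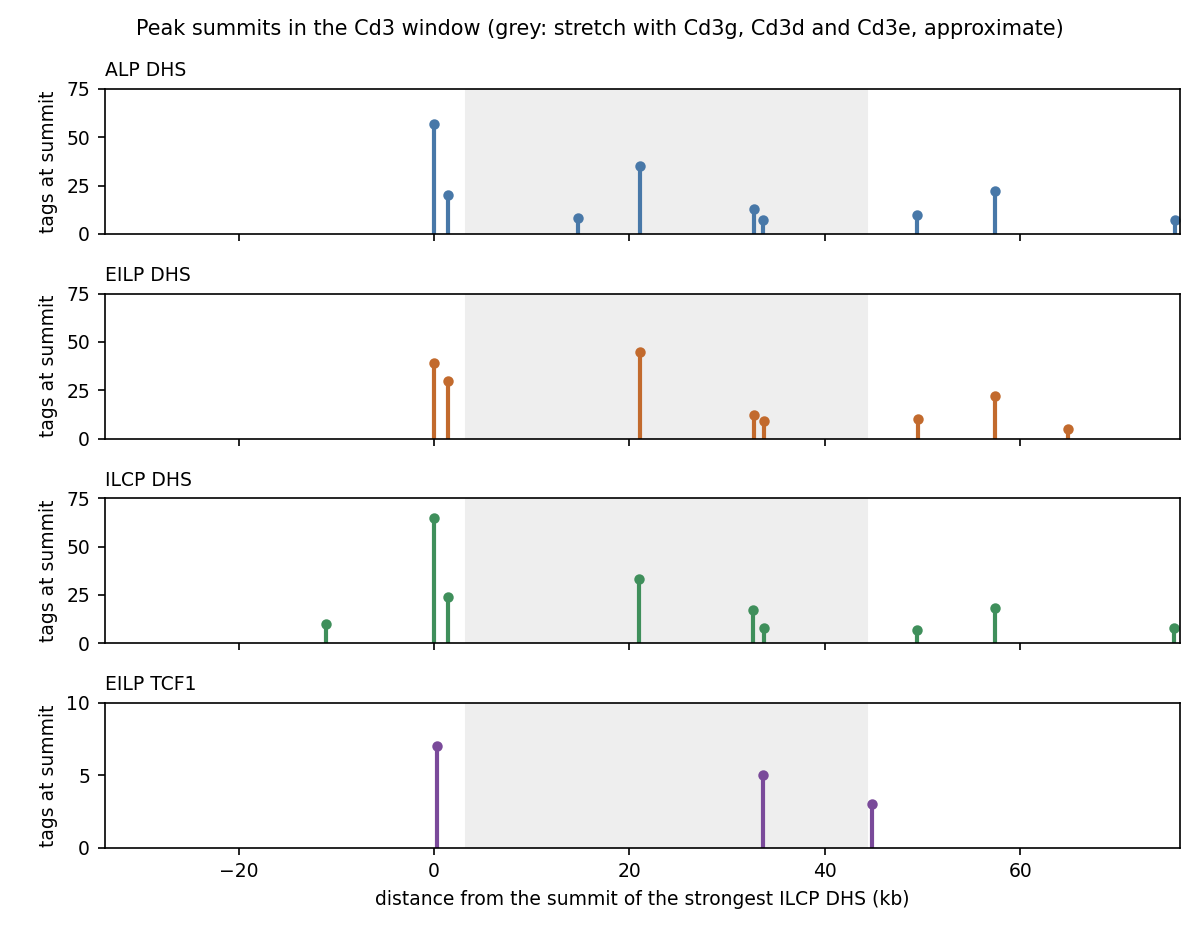
Summit heights (tags at the summit, vertical axis) of the peaks in the window for the 3 DHS lists and for TCF1 in EILP, by distance in kb from the strongest ILCP DHS; grey marks the approximate stretch of Cd3g, Cd3d and Cd3e. The tall peak at 0 reached 57, 39 and 65 tags and lay outside the grey stretch, and the tallest peak within it reached 35, 45 and 33 tags.

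The strongest site of the window in ALP and ILCP lay outside the approximate stretch of the 3 genes, on the side of Cd3g and Ube4a. Whether it lies at the start of Ube4a could not be settled without gene positions on this build. This region, chr9:44773556-44773945 (region 2 of 11 in order of position), ended a little over 3 kb below the approximate low end of the gene stretch. Its summit held 57 tags (43.2 to 73.9) in ALP, 39 (27.7 to 53.3) in EILP and 65 (50.2 to 82.8) in ILCP. The ILCP peak is among the strongest of its list, where 65 of 71973 peaks had a higher fold enrichment than its 21.9. In ALP 188 peaks exceeded its fold of 19.8, and in EILP 5427 peaks exceeded its fold of 13.6. Per 1000000 tags the heights were 4.59 in ALP (3.48 to 5.95), 3.47 in EILP (2.47 to 4.74) and 5.13 in ILCP (3.96 to 6.53). EILP had the lowest height and ILCP the highest, and the 3 counting intervals overlap. Summits of the 3 stages fell within 41 bp of each other.

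A second region stood about 1 kb further towards the genes, at chr9:44774981-44775210 (region 3). It held 20 tags in ALP, 30 in EILP and 24 in ILCP, with folds of 7.02, 10.3 and 8.33. Here EILP was the highest stage, at 2.67 tags per 1000000 (1.80 to 3.81) against 1.61 in ALP (0.984 to 2.49) and 1.89 in ILCP (1.21 to 2.82). These intervals overlap too. Its summits agreed within 6 bp between stages, where the median spread over the 37831 regions with exactly 1 peak in each stage was 35 bp.

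Within the stretch of Cd3g, Cd3d and Cd3e there were 4 regions, and 3 of them were open in every stage. Its low end, where gene order places Cd3g, was bare in 2 of the stages. From 44775211 to 44794438 no EILP DHS was called, a gap of 19228 bp, and the ILCP gap of 19134 bp from 44775194 matched it. These were the longest gaps between DHS of the window in those stages. The first DHS inside the gene stretch began 17439 bp above its low end in EILP and 17328 bp in ILCP. Whether the neighbouring starts of Cd3g and Cd3d lie in the gap could not be settled without gene positions on this build. The median gap between neighbouring DHS was 9930 bp in EILP and 10700 bp in ILCP, and 68.2% and 67.1% of gaps were shorter, so gaps of this length are common.

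The only DHS inside that gap was an ALP peak at chr9:44788418-44788561 (region 4). It held 8 tags (3.45 to 15.8) with a fold of 5.41 and no EILP or ILCP peak lay within 500 bp. It was a weak peak, and 25.6% of ALP peaks had a lower fold. Absence from the other lists means that no peak passed the authors' threshold there, and the lowest height of any peak in the EILP and ILCP lists was 5 tags.

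The tallest site inside the gene stretch was chr9:44794328-44794945 (region 5), which at 618 bp was also the widest region of the window. Its summit held 35 tags (24.4 to 48.7) in ALP, 45 (32.8 to 60.2) in EILP and 33 (22.7 to 46.3) in ILCP. It was the strongest DHS of the window in EILP, where 96.7% of the list had a fold below its 15.8. The folds were 13.8 in ALP and 11.1 in ILCP. Per 1000000 tags the height was 2.82 (1.96 to 3.92), 4.00 (2.92 to 5.36) and 2.60 (1.79 to 3.65), highest in EILP with overlapping intervals. The summits lay at 44794807 in ALP, 44794739 in EILP and 44794660 in ILCP. That spread of 147 bp was wider than in 95.7% of the regions with exactly 1 peak in each stage. All 3 peaks shared 450 bp, and the summits were not tested for a shift.

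The remaining pair of regions in the stretch lay close together in its upper part. The first, chr9:44806249-44806556 (region 6), held 13 tags (6.92 to 22.2) in ALP, 12 (6.2 to 21) in EILP and 17 (9.9 to 27.2) in ILCP, with folds of 7.57, 7.39 and 9. These heights are close to the median of the lists, which was 14 tags for ALP and 13 for each of the later stages. The second, chr9:44807342-44807491 (region 7), was a weak site in each stage. It held 7 tags (2.81 to 14.4), 9 (4.12 to 17.1) and 8 (3.45 to 15.8), with folds of 4.52, 5.75 and 4.52. Its 3 peaks had 50 bp in common, and the ALP summit stood 90 bp below the ILCP summit.

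**Figure D2:**
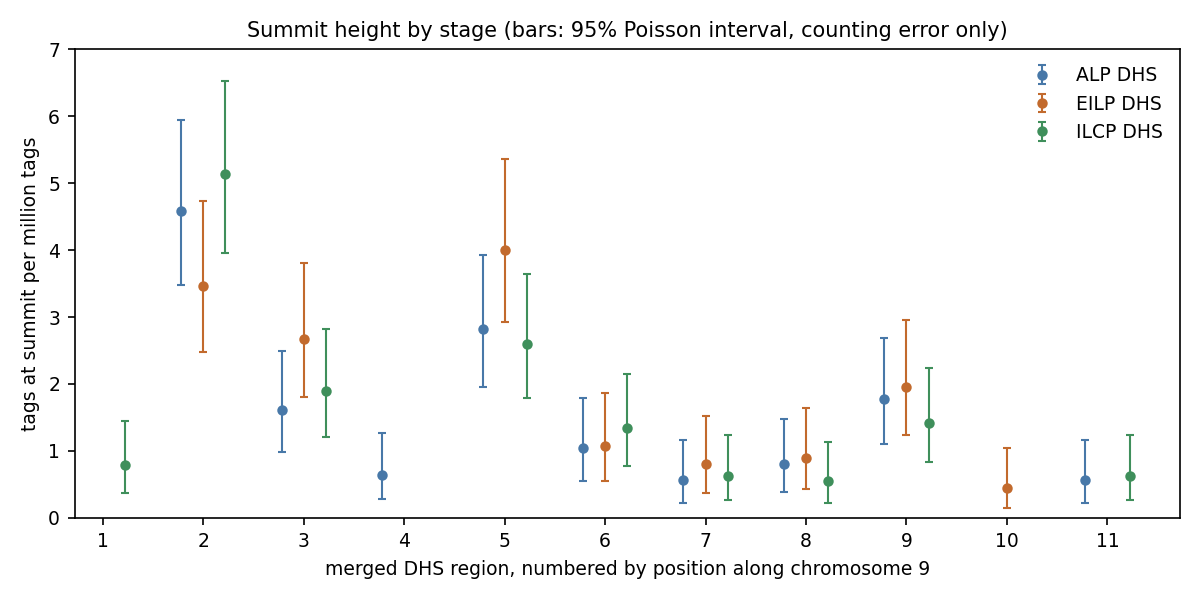
Tags at the summit per 1000000 tags (vertical axis) for each of the 11 merged regions, numbered by position, in ALP, EILP and ILCP; bars are 95% Poisson intervals for counting error. Regions 2 and 5 stand highest in each stage. For all 22 pairs of stages that share a region the bars overlap, which is no test of a difference.

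On the high side of the stretch, beyond the end where Cd3e starts, 4 regions were found. The tallest was chr9:44830949-44831210 (region 9), with 22 tags in ALP (fold 13.1), 22 in EILP (fold 12.5) and 18 in ILCP (fold 11.3). Its folds were higher than those of 90.7%, 89.1% and 83.6% of the lists, and its summits agreed within 7 bp. The region chr9:44823084-44823261 (region 8) was weaker, with 10, 10 and 7 tags. Both were open in all 3 stages.

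The regions that were not open in all stages were all low peaks. Besides the ALP peak at chr9:44788418-44788561, there were an ILCP peak at chr9:44762591-44762762 with 10 tags, an EILP peak at chr9:44838442-44838622 with 5 tags, and chr9:44849431-44849611, with 7 tags in ALP and 8 in ILCP and no EILP peak. The EILP peak has the lowest height of its list, with a −log10 q of 1.54, and 0.203% of EILP peaks had a lower fold. No region that changed between stages reached the median height of its list. By comparison, over the genome the regions absent from a neighbouring stage had a median height of 9 tags, and those open in all stages had medians of 17 to 18.

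Counted by step, 1 of the 8 EILP regions of the window was absent from ALP (12.5%, interval 0.316 to 52.7), where 28.1% of all EILP regions were. Of the 9 ALP regions, 2 were absent from EILP (22.2%, 2.81 to 60.0), where the genome share was 24.1%. Of the 9 ILCP regions, 2 were absent from EILP (22.2%, 2.81 to 60.0), where the share was 30.6%. Finally, 1 of the 8 EILP regions was absent from ILCP, where the share was 28.4%. These shares lie within the interval of each count, and with 8 or 9 regions a departure from the genome could hardly be seen.

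**Figure D3:**
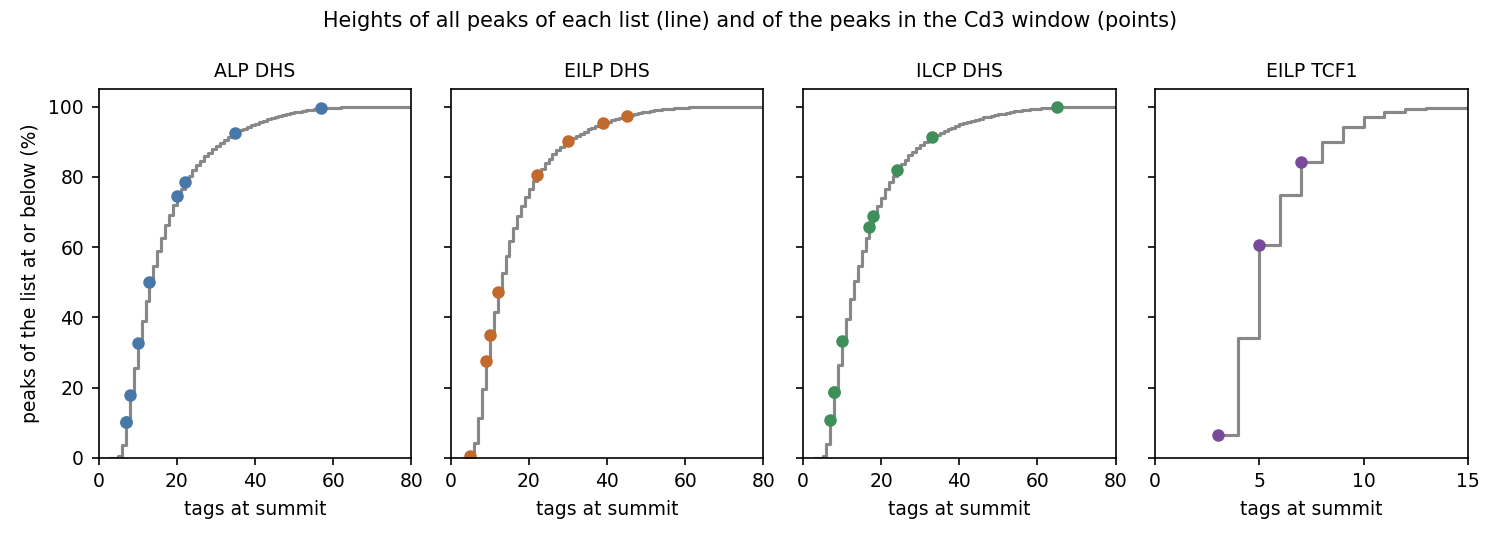
Share of the peaks of each list at or below a given height (line; vertical axis in percent, horizontal axis in tags at the summit), with the peaks of the Cd3 window as points. Window peaks run from near the bottom of each DHS list (7 tags in ALP and ILCP, 5 in EILP) to near its top (57, 45 and 65 tags), and the TCF1 points lie at 3, 5 and 7 tags.

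Within each list the window's peaks thus ranged over nearly the whole range of heights. The median height was 13 tags in ALP, 17 in EILP and 17 in ILCP, against list medians of 14, 13 and 13. The median fold was 7.02, 8.86 and 8.33, against 6.95, 6.87 and 6.91. Of the window's peaks, 4 of 9 in ALP, 4 of 8 in EILP and 5 of 9 in ILCP reached the median height of their list. Lists of different length give no measure of change between stages.

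Cutting around the peaks also differed along the window. The authors' local background gives back the number of tags in the 10 kb around a summit, wherever it exceeds the genome average. These numbers came out whole within 0.0003 tags. Around the summit of chr9:44773556-44773945 there were 193 tags in ALP, 195 in EILP and 201 in ILCP. Around that of chr9:44794328-44794945 there were 160, 191 and 207. At chr9:44806249-44806556 there were only 85, 76 and 100. The genome average is 66.4, 60.1 and 67.8 tags per 10 kb, and the median around all DHS was 100, 94 and 100. The 10 kb windows include the peaks themselves, and those of neighbouring sites share tags.

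Scaled to depth, the 10 kb around chr9:44794328-44794945 held 12.9 tags per 1000000 in ALP (11 to 15), 17.0 in EILP (14.7 to 19.6) and 16.3 in ILCP (14.2 to 18.7). ALP was lowest there, with intervals that overlap slightly. Around chr9:44773556-44773945 the values were 15.5, 17.4 and 15.8 per 1000000. EILP, whose peak was the lowest of the 3 at that summit, was therefore not lowest over the surrounding 10 kb. Of the window's 26 DHS peaks, 5 had a background at the genome average and give no such count.

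**Figure D4:**
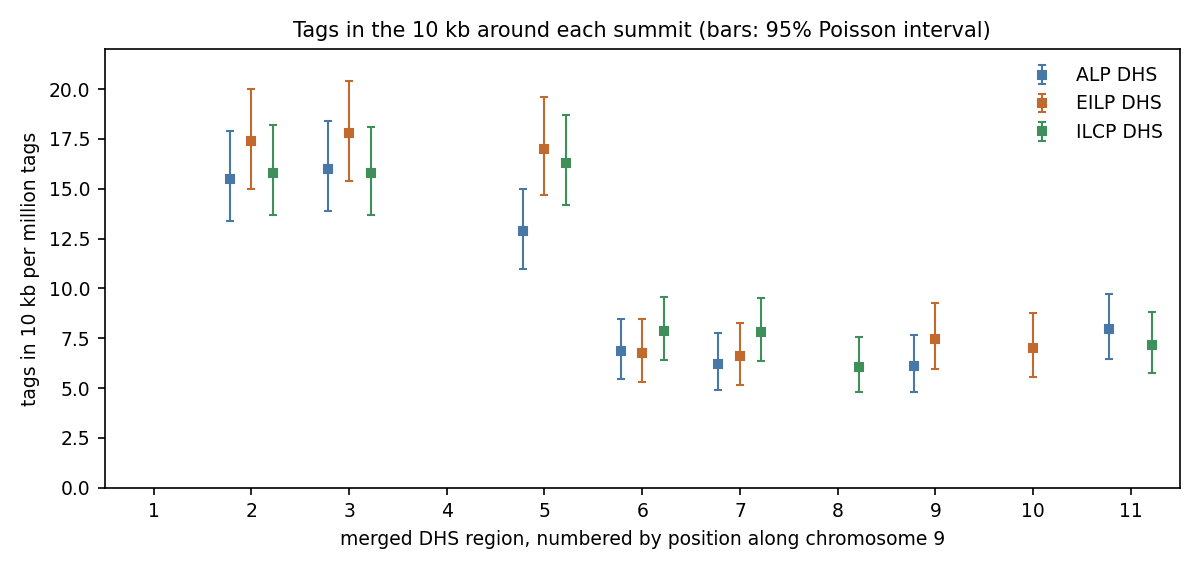
Tags in the 10 kb around each summit per 1000000 tags (vertical axis) for the regions numbered by position, in ALP, EILP and ILCP; bars are 95% Poisson intervals, and peaks whose background equals the genome average are left out. Regions 2, 3 and 5 lie between 12.9 and 17.8 and the other regions between 6.07 and 7.97.

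TCF1 was found at 3 places in the window, all with few tags. The strongest peak, chr9:44773899-44774036, lay on the flank of region 2, on the low side of the genes. Region 2 was the strongest DHS of the window in ALP and ILCP. In EILP the strongest was region 5, which overlapped no TCF1 peak. The TCF1 peak at region 2 held 7 tags (2.81 to 14.4) with a fold of 6.01, higher than 79.6% of the TCF1 list. It shared 47 bp with the ALP DHS and 15 bp with the EILP DHS and did not touch the ILCP DHS. Its summit stood outside all 3, at 33 bp from the edge in ALP, 65 bp in EILP and 97 bp in ILCP, and 290 bp from the EILP summit. Over all TCF1 peaks that overlapped an EILP DHS, the median distance between the summits was 55 bp, and 12% had their summit outside the DHS.

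The second TCF1 peak lay inside the gene stretch, at chr9:44807260-44807359. It held 5 tags (1.62 to 11.7) with a fold of 5.31, higher than 60.7% of the list. It shared 18 bp with the weak ALP DHS of chr9:44807342-44807491 and ended before the EILP and ILCP peaks of that region began. Its summit was 24 bp from the ALP summit and 111 bp from the EILP summit. TCF1 was measured in EILP, and the only DHS with which this TCF1 peak shared bases came from another stage. The EILP and ILCP DHS of the region were close, with edges 50 bp and 26 bp from the TCF1 summit. The EILP DHS held 9 tags and the ALP DHS 7.

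The third TCF1 peak, chr9:44818490-44818589, began 490 bp beyond the approximate high end of the gene stretch, on the side where Cd3e starts. It held 3 tags (0.619 to 8.77), the lowest height in the TCF1 list, with a fold of 3.54 and a −log10 q of 1.56. Only 4.43% of the list had a lower fold. No DHS of any stage was near it. The nearest summits were 4636 bp away in ILCP, 4646 bp in ALP and 4662 bp in EILP. Whether it lies at the start of Cd3e cannot be settled from an approximate gene position.

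Of the 3 TCF1 peaks, 1 overlapped an EILP DHS, where 57.5% of all TCF1 peaks did. An ALP DHS was overlapped by 2, where the share was 51.2%, and an ILCP DHS by 0, where it was 58.2%. Counting any stage, 2 of 3 overlapped a DHS, against 65.6%. None had its summit inside an EILP DHS, against 50.6%. From the side of the DHS, 2 of the 11 regions overlapped a TCF1 peak (18.2%, 2.28 to 51.8), against 4.16% of all regions. Counts this small can hardly be told from those shares.

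The window is rich in peaks for its length. Over 23976 windows of the same length tiled along the autosomes and the X chromosome, the median number of DHS summits was 1 in each stage, and 9.64% of windows held at least as many as the 9 of ALP. The corresponding shares were 13.7% for the 8 of EILP and 10.7% for the 9 of ILCP. Many windows held no DHS summit at all, with 43.6% in ALP, 43.7% in EILP and 41.3% in ILCP. Of the same windows, 82.9% held no TCF1 summit and 2.57% held 3 or more. These shares describe the genome and take no account of gene density.

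The counts depend on where the window ends. Just outside its low edge lay a DHS of all 3 stages starting at 44728740 in ALP, with 16 tags in ALP, 13 in EILP and 15 in ILCP, and a TCF1 peak at chr9:44729401-44729500 with 4 tags. The last DHS inside the high edge had 7 tags in ALP, 5 in EILP and 8 in ILCP, and the first ones outside it had 14, 9 and 8. The next TCF1 peak on the high side began only at 45095393.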

How the data were processed

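DNase-seq and CUT&RUN libraries of 21 mouse samples were represented by 4 peak lists, which were the only files used. Per the file headers, the authors called each list with MACS version 2.1.1.20160309 from 1 pooled tag file, with a q threshold of 0.05, tags of 50 bp extended to 100 bp and no more than 1 tag kept per position. DHS lists had a shift of 50 bp, no control and a 10 kb background, and TCF1 had the pooled IgG file as control. Per the submitters' processing notes the genome build was mm9, and the aligner is not given in the sources used here. The deposited height is a signal in whole tags, the deposited strength is a ratio (fold enrichment) and the deposited −log10 value used is that of q.

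Peaks of the 3 stages that shared at least 1 bp were merged into regions, and a region counted as open wherever a stage contributed a peak to it. Intervals are exact (Poisson for tags, Clopper-Pearson for shares) at 95%. No test was run, since each group is 1 pooled list. The place of a height or fold among all peaks was taken within its own list only. Heights and 10 kb counts of different stages were set side by side per 1000000 tags, with counting intervals. Tags in 10 kb were 100 times the background, which was (height + 1)/fold − 1. Named regions followed a rule: height with its interval and fold for those in the gene stretch, the strongest of each stage and those with a TCF1 peak. The rule also covered changing regions that reached the median height of their list, and no region did. Regions outside the rule were given by height, and regions 3, 9 and 10 in more detail. The members, the motifs and the rules were chosen with earlier results of these data known. The region functions were tested on simulated lists. Python 3.11.15, numpy 2.4.6, pandas 2.3.3 and scipy 1.17.1 were used. The other T cell receptor genes and the sort markers were not located, since the annotation at hand was of another build, GRCm38. Alternatives covered the overlap rule, the threshold, the number of peaks per list and the window.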

Additional observations from a re-analysis of the deposited data

How the results depend on the processing

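No paired analysis was possible because each list pools its libraries, and for the same reason no library was left out. Of 71 alternative values for 11 counts and shares, 46 stayed within 1.5 times (counts) or within the interval of the main share, and 25 did not, 15 of them from another window. Requiring 50% of the shorter peak for a shared region, or no peak within 500 bp for absence, left every one of the 11 regions with the same stages. With a DHS q of at most 0.01, or with 66499 peaks per list, the 5-tag EILP peak was lost and the share of EILP regions gained from ALP was 0%. With the stronger 50% of each list by fold, ALP and ILCP kept 5 peaks each, EILP kept 6, and 6 regions were left. Of these, 5 were open in all stages and region 8 was left in EILP alone. EILP regions gained from ALP were 16.7% (1 of 6), ILCP regions gained from EILP 0% and ALP regions lost at EILP 0%. Genome shares were not computed at this cutoff. With the gene stretch alone there were 4 DHS peaks in ALP, 3 in EILP and 3 in ILCP, and 4 regions with 3 open in all stages. There 0% were gained at EILP and 0% at ILCP, and 25% of ALP regions (1 of 4) were lost at EILP. The stretch held 1 TCF1 peak, which overlapped 0 EILP DHS and 1 DHS of any stage. With 100 kb more on each side there were 32, 30 and 31 DHS peaks and 43 regions, 18 of them open in all stages. Counting only TCF1 summits, 0 lay inside an EILP DHS, 1 inside a DHS of any stage, and 2 within 500 bp of an EILP DHS. The TCF1 peaks rest on 3 to 7 tags each, and with a TCF1 q of at most 0.01 the peak beyond the Cd3e end was lost.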
